A study of Bos taurus and Sus scrofa with 10 samples.

Results

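9 genes of the primitive endoderm and its basement membrane were followed from the oocyte to the blastocyst in cow and pig: the transcription factors GATA6, GATA4, SOX17 and HNF4A, the receptor PDGFRA, and the matrix genes FN1, LAMA1, LAMB1 and COL4A1. They were taken by symbol, as 9 of 28050 symbols in both tables together. The 9 genes were chosen with earlier results of these data known, so the choice was not blind to the data. Cow had a row for all 9 and pig for 8, and pig COL4A1 was not analysed here. No member symbol had more than 1 row in either species.

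The study sequenced total RNA of oocytes, 2-4 cell embryos, 8-16 cell embryos, morulae (compacting balls of cells) and blastocysts (hollow embryos with an inner cell mass) of Bos taurus (cow) and Sus scrofa (pig). No treatment or genetic change is named for any group. There were 10 libraries, 1 for each of 5 stages in each species. Without replicates the spread between samples of a stage is unknown, and no test was made. The labels used here do not give the number of oocytes or embryos pooled, the breed or age of the animals, or whether embryos grew in the animal or in culture.

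The primitive endoderm, called the hypoblast in livestock, is the inner cell mass lineage that lines the blastocyst cavity and later forms the yolk sac. In mouse, where it is best known, GATA6 and signalling through FGF and PDGF receptors set it apart from the NANOG-expressing epiblast, and SOX17, GATA4 and HNF4A mark its later steps. Its cells lay down a basement membrane, a sheet in which laminin trimers and type IV collagen form the main networks and fibronectin is often present. Several of these genes are not unique to that lineage, since trophectoderm, the outer layer of the blastocyst, also makes GATA6 and matrix proteins.

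Levels are given in RPM, the reads of a gene per 1000000 reads of the library. RPM is not divided by gene length, so values compare a gene between stages of 1 species and not genes with each other. Libraries held between 3002751 reads (pig morula) and 14182046 reads (cow blastocyst), and the floor, the level of 3 reads that a count of 0 allows, lay between 0.212 and 0.999 RPM. Mitochondrial genes took between 2.74% and 30.2% of the reads in cow, the highest share in the blastocyst, and between 6.06% and 18.6% in pig. The oocyte markers ZP2, ZP3, BMP15 and GDF9 summed to 4990 RPM in the cow oocyte and 0 in the cow blastocyst, and to 4869 and 21.2 RPM in pig. Changes between stages are differences of log2(RPM + 1), later minus earlier, in which 0 reads stand as 0.9 of a read, as deposited. A gene was compared where it had at least 1 RPM in either stage and was called higher or lower when the difference reached 2 (4-fold of RPM + 1); "rose" and "fell" are used for called genes only. The changes of low genes come out too small on this scale. Intervals on levels are 95% Wilson intervals and those on folds are exact binomial intervals. All of them cover counting error only, because the RNA was amplified and copied by PCR without molecular identifiers. Against 0 reads, a fold given as "at least" is the observed level over the floor of the library with 0 reads. It leaves out the counting error of the observed level, so it can lie above the exact binomial lower limit.

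From oocyte to blastocyst, 7 of the 8 genes compared in cow rose, against 21.8% of all compared genes, and 0 fell, against 18.4%. They were GATA6, PDGFRA, HNF4A, FN1, LAMA1, LAMB1 and COL4A1. In pig 3 of 7 rose, against 26%, namely GATA6, FN1 and LAMA1, and 2 fell, against 19.2%, namely GATA4 and LAMB1. The median difference of the compared genes was 4.08 in cow and 1.91 in pig, beside 0.18 and 0.43 over all compared genes. With counts of 0 to 3 reads set to the floor, the medians were 3.76 in cow and 1.33 in pig. SOX17 was under 1 RPM in every library of both species and was not compared. In the cow, 5, 4, 4, 5 and 9 of the 9 genes had over 3 reads from the oocyte to the blastocyst, where 47.8%, 48.9%, 51.6%, 49.1% and 53.7% of all rows did. In the pig, 4, 6, 4, 5 and 7 of the 8 genes did, beside 46%, 50.2%, 52.6%, 51.3% and 49.3% of all rows. These are whole samples, in which more cells of a type and more RNA per cell cannot be told apart.

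**Figure D1:**
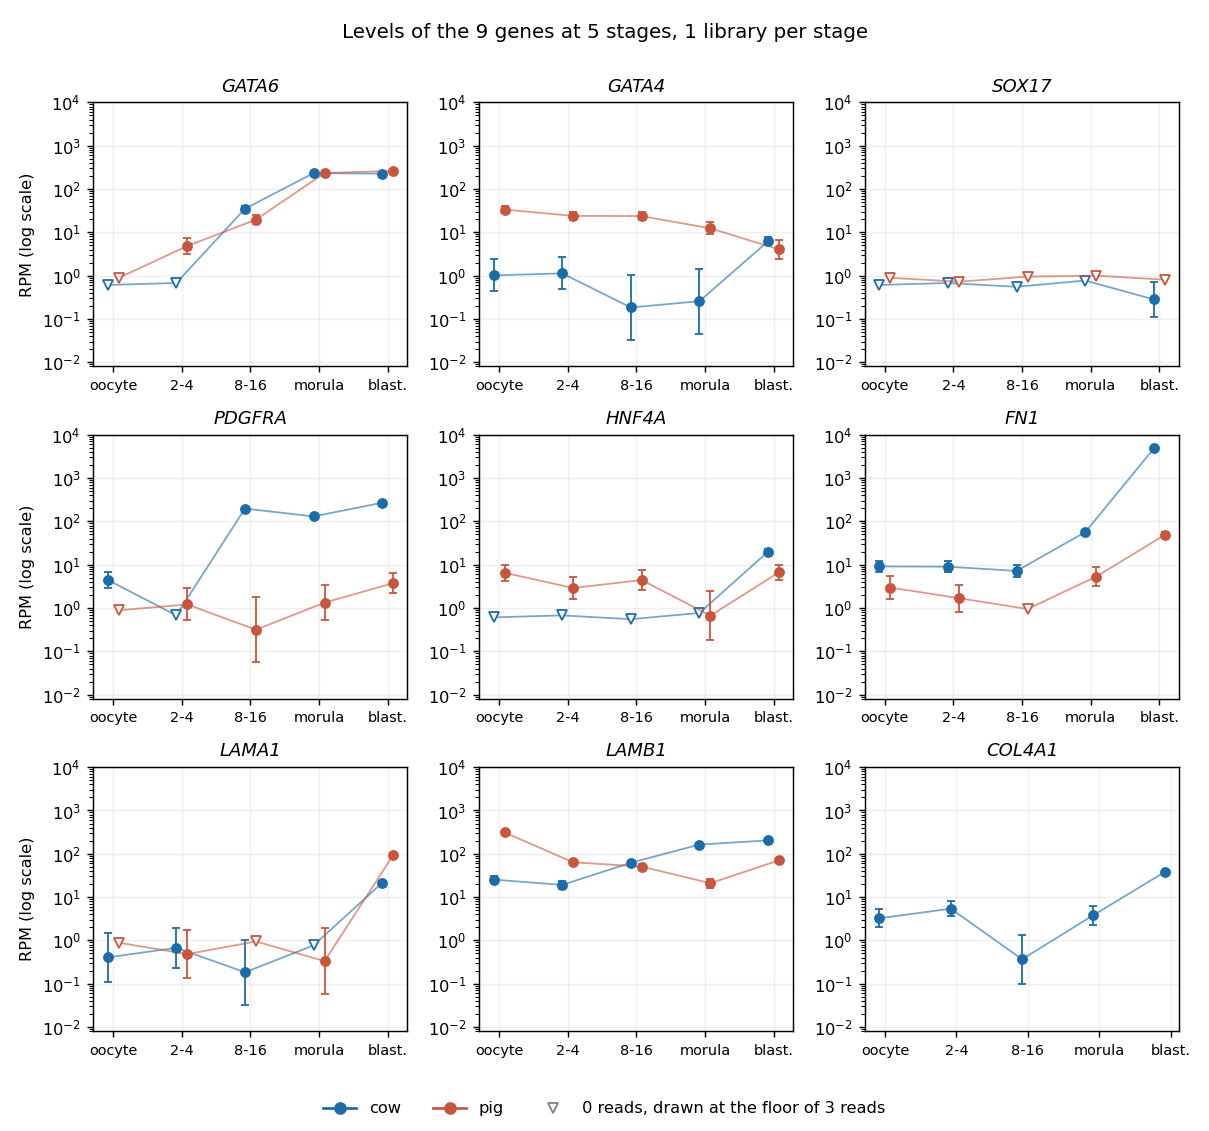
Level of each of the 9 genes (RPM, log scale) at the 5 stages in cow (blue) and pig (red), 1 library per point, with 95% Wilson intervals as bars and open triangles at the floor of 3 reads where no read was counted; the species were scaled separately. GATA6 goes from 0 reads in both oocytes to 226 RPM in the cow and 261 RPM in the pig blastocyst, whereas LAMB1 rises in cow and falls in pig.

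GATA6, a zinc finger factor that acts at the first step of the lineage in mouse, had 0 reads in the cow oocyte and the cow 2-4 cell embryo. It stood at 35.0 RPM (30.3 to 40.3) in the cow 8-16 cell embryo, 232 RPM (218 to 248) in the morula and 226 RPM (218 to 234) in the blastocyst. In pig it had 0 reads in the oocyte and 4.83, 19.6, 234 and 261 RPM at the stages that follow. Both species thus had low or no GATA6 RNA before the 8-16 cell stage and their highest levels in the morula and the blastocyst. The cow rise over the whole course was at least 372-fold (difference 7.59) and the pig rise at least 294-fold (difference 7.69).

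GATA6 was called at the following steps, and whether the steps differ between the species was not tested. In cow it rose from the 2-4 cell to the 8-16 cell embryo by at least 51.8-fold (difference 4.90) and again to the morula by 6.64-fold (5.68 to 7.81). In pig it rose from the oocyte to the 2-4 cell embryo (difference 2.20), a call of 20 reads against 0 that was not made with 0 to 3 reads set to the floor (1.63) or with a pseudocount of 5 RPM (0.90). It rose again from the 8-16 cell embryo to the morula by 12.0-fold (9.21 to 15.8). The pig step between them, from the 2-4 cell to the 8-16 cell embryo, was 4.05-fold with a difference of 1.82, under the threshold. From morula to blastocyst GATA6 was not called in either species: the ratio of the levels was 0.974 (0.904 to 1.05) in cow and 1.12 (1.01 to 1.23) in pig.

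GATA4, a relative of GATA6 that marks the later primitive endoderm, was near the floor before the cow blastocyst. Its cow levels were 1.01, 1.13, 0.184 and 0.256 RPM from the oocyte to the morula, which are 5, 5, 1 and 1 reads, and 6.21 RPM (88 reads, 5.04 to 7.64) in the blastocyst. The rise from morula to blastocyst was called (difference 2.52), at a ratio of 24.2 whose counting interval runs from 4.23 to 966, and it was not called with a pseudocount of 5 RPM (1.09). Against the oocyte the difference was 1.84, not called, and it passed the threshold with a pseudocount of 0.1 RPM (2.50) and when scaled to reads in gene rows outside the mitochondrial chromosome (2.39).

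In pig, GATA4 took the other course, highest in the oocyte. Its levels were 33.5 RPM (27.8 to 40.2) in the oocyte, 23.9 in the 2-4 cell embryo, 23.7 in the 8-16 cell embryo, 12.3 in the morula and 4.02 RPM (2.44 to 6.64) in the blastocyst. The 2-4 cell and 8-16 cell libraries did not differ beyond counting error, and the other neighbours in this order did. GATA4 fell from oocyte to blastocyst by 8.32-fold (4.84 to 15.4, difference -2.78), while no single step was called. GATA6 and GATA4 RNA therefore had opposite called changes over the pig course.

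SOX17, an SRY-related factor of endoderm, had 0 reads in 4 of the 5 cow libraries and in all 5 pig libraries. The cow blastocyst held 4 reads, 0.282 RPM (0.110 to 0.725). That library was the deepest, and at the depth of the cow morula library the same level would give 1.10 reads. In pig a count of 0 allows up to 0.804 RPM in the blastocyst and up to 0.999 RPM in the morula. SOX17 RNA was thus not detectable at this depth in 9 of the 10 libraries.

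HNF4A, a nuclear receptor of endoderm that also acts in liver and gut, had 0 reads in the cow oocyte, the 2-4 cell embryo, the 8-16 cell embryo and the morula. The cow blastocyst had 20.0 RPM (17.8 to 22.5), 284 reads. At the depth of the cow morula library this level corresponds to 78.1 reads. The rise from morula to blastocyst was 26.0-fold against the floor (difference 4.09). From oocyte the rise was 32.9-fold against the floor (difference 4.15), with an exact binomial lower limit of 26.6-fold.

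In pig, HNF4A was detected already in the oocyte. Levels were 6.51 RPM in the oocyte, 2.90 in the 2-4 cell embryo, 4.42 in the 8-16 cell embryo, 0.666 in the morula (2 reads) and 6.70 RPM in the blastocyst. With the libraries sorted from highest to lowest level, no neighbours differed beyond counting error. In stage order some did. The ratio of oocyte to 2-4 cell embryo was 2.25 (1.06 to 4.98), and of 8-16 cell embryo to morula 6.64 (1.52 to 60.2). HNF4A was called higher from morula to blastocyst (difference 2.21, ratio 10.1, 2.51 to 87.7), a call that rests on the 2 morula reads and was not made when these were set to the floor (1.95) or with a pseudocount of 5 RPM (1.05). Between oocyte and blastocyst the difference was 0.04, with a ratio of 1.03 (0.557 to 1.92).

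PDGFRA, the receptor of PDGF ligands and a surface marker of primitive endoderm in mouse, was high in cow from the 8-16 cell stage. The cow levels were 4.46 RPM in the oocyte (22 reads), 0 in the 2-4 cell embryo, 198 in the 8-16 cell embryo, 130.3 in the morula and 269.7 RPM (261 to 278) in the blastocyst. Every neighbouring pair in that order differed beyond counting error. PDGFRA fell from the oocyte to the 2-4 cell embryo by 6.60-fold against the floor, with an exact binomial lower limit of 4.93-fold. It was the only member called at that step in cow, where 0.178% of compared genes were called lower. That call, 22 reads against 0, was not made with 0 to 3 reads set to the floor (-1.70) or with a pseudocount of 5 RPM (-0.86). PDGFRA then rose by at least 293-fold to the 8-16 cell embryo (difference 7.37), and the blastocyst stood 60.4-fold (39.9 to 96.6) over the oocyte.

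Pig PDGFRA stayed low. Its levels were 0 in the oocyte, 1.21, 0.316 and 1.33 RPM in the 2-4 cell embryo, the 8-16 cell embryo and the morula, and 3.75 RPM (2.24 to 6.30, 14 reads) in the blastocyst. No neighbours in this order differed beyond counting error. The blastocyst was at least 4.23-fold over the oocyte, a difference of 1.91 that was not called. The difference passed the threshold with 0 reads entered as 0 (2.25), with a pseudocount of 0.1 RPM (3.39) and when scaled to non-mitochondrial gene reads (2.19).

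FN1 encodes fibronectin, a matrix glycoprotein bound by integrins. In cow it was 9.13, 9.01 and 7.18 RPM in the oocyte, the 2-4 cell and the 8-16 cell embryo, which did not differ beyond counting error, then 56.4 RPM in the morula and 4843 RPM (4807 to 4879) in the blastocyst. The cow blastocyst held 68681 FN1 reads and 98.3% of the RPM summed over the 5 cow libraries. FN1 rose 7.86-fold (5.57 to 11.4) from the 8-16 cell embryo to the morula and 85.8-fold (75.2 to 98.4) from there to the blastocyst. Over the whole course the rise was 531-fold (397 to 727, difference 8.90).

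Pig FN1 also had its highest level in the blastocyst, at 48.8 RPM (42.2 to 56.4). The earlier pig libraries had 2.96 RPM in the oocyte, 1.69 in the 2-4 cell embryo, 0 in the 8-16 cell embryo and 5.33 in the morula. FN1 rose from the 8-16 cell embryo to the morula by at least 5.62-fold and from the morula to the blastocyst by 9.16-fold (5.49 to 16.4). The first of these calls was not made with 0 to 3 reads set to the floor (1.70) or with a pseudocount of 5 RPM (0.97). From oocyte to blastocyst it rose 16.5-fold (8.76 to 34.9, difference 3.65).

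LAMA1, the alpha chain of laminin-111, was at or under the floor in all 4 libraries before the blastocyst in both species. The cow libraries held 2, 3, 1 and 0 reads from the oocyte to the morula, and the blastocyst 305 reads, 21.5 RPM (19.2 to 24.1). The pig libraries held 0, 2, 0 and 1 reads, and the blastocyst 349 reads, 93.6 RPM (84.3 to 104). LAMA1 rose from morula to blastocyst by at least 28.0-fold in cow (difference 4.19) and at a ratio of 281 in pig (50.1 to 11129, difference 6.15). Against the oocyte the cow ratio was 53.0 (14.6 to 440) and the pig rise was at least 105-fold.

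LAMB1, the beta chain of the same trimer, was present in every library. In cow it was 25.4, 19.2, 62.0, 163 and 204 RPM from the oocyte to the blastocyst. Only the oocyte and the 2-4 cell embryo, the lowest pair, did not differ beyond counting error. No single cow step was called, and over the whole course LAMB1 rose 8.04-fold (6.72 to 9.69, difference 2.96).

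Pig LAMB1 began high, at 311 RPM (292 to 330) in the oocyte. It was 63.8 RPM in the 2-4 cell embryo, 50.5 in the 8-16 cell embryo, 21.0 in the morula and 70.8 RPM (62.7 to 79.9) in the blastocyst. The first step was called, a fall of 4.87-fold (4.25 to 5.59, difference -2.27), and not when scaled by the median (-1.94) or by quantiles (-1.97). The ratio of blastocyst to morula was 3.37 (2.55 to 4.52), a difference of 1.71 that was not called. Over the course LAMB1 fell 4.39-fold (3.83 to 5.04, difference -2.12), opposite to cow, and this difference between the species was not tested.

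COL4A1, an alpha chain of type IV collagen, was measured here in cow. Its levels were 3.25 RPM in the oocyte, 5.41 in the 2-4 cell embryo, 0.368 in the 8-16 cell embryo (2 reads), 3.85 in the morula and 38.1 RPM (35.1 to 41.5) in the blastocyst. The 2-4 cell, morula and oocyte libraries did not differ beyond counting error. COL4A1 fell to the 8-16 cell embryo (difference -2.23, a ratio of 14.7 with a counting interval of 3.65 to 128), a call not made with a pseudocount of 5 RPM (-0.96). It then rose from morula to blastocyst by 9.92-fold (5.96 to 17.8) and stood 11.8-fold (7.17 to 20.7) over the oocyte in the blastocyst.

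**Figure D2:**
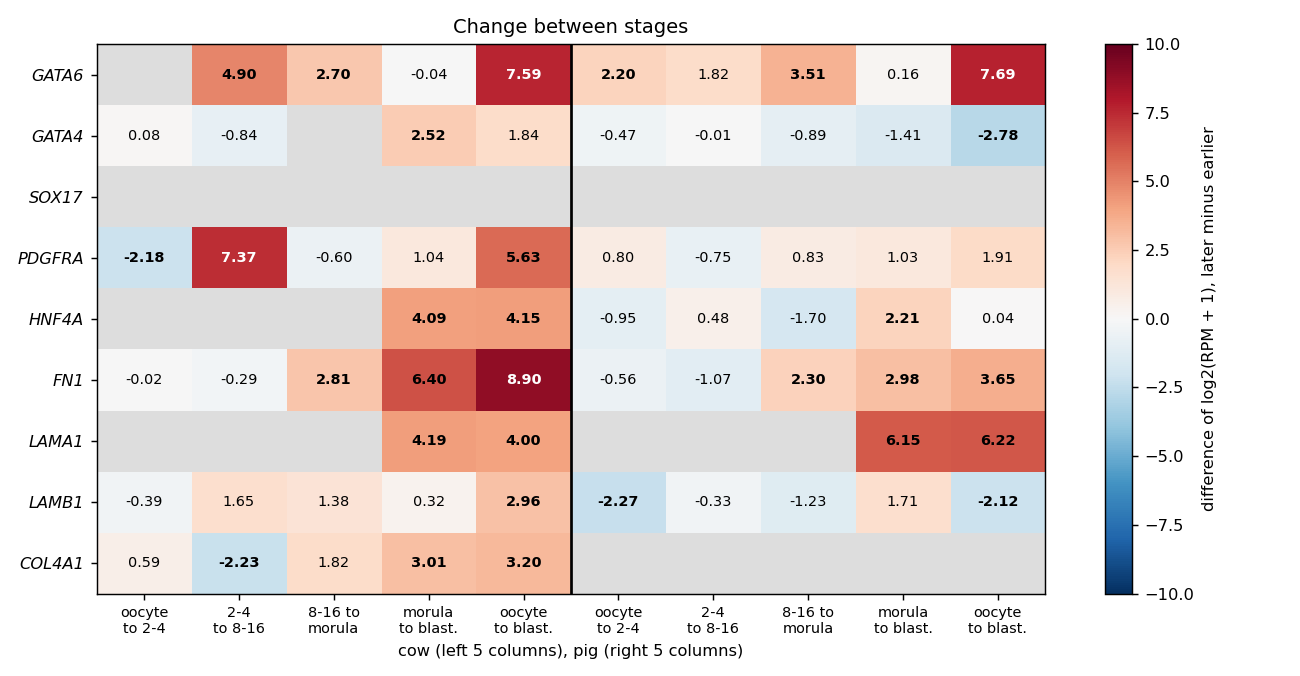
Difference of log2(RPM + 1), later minus earlier stage, for the 9 genes (rows) in 4 successive steps and over the whole course in cow (left) and pig (right); red is higher, blue is lower, bold values passed the threshold of 2, and grey cells were not compared or, for pig COL4A1, not analysed. FN1 in cow (8.90) and GATA6 in both species (7.59 and 7.69) have the largest differences over the whole course.

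FN1, LAMA1 and, in cow, COL4A1 were first called higher on reaching the morula or the blastocyst, whereas GATA6 and PDGFRA were called higher at an earlier step in cow. Pig GATA6 was called at the first step with the limits given above. From oocyte to 2-4 cell embryo 0 of 5 cow genes rose (0.196% of all compared genes), and in pig 1 of 6 rose, GATA6 (3.26%), and 1 fell, LAMB1 (2.17%). From the 2-4 cell to the 8-16 cell embryo 2 of 6 cow genes rose (12.6%), GATA6 and PDGFRA, and 1 fell, COL4A1 (14.6%), while in pig 0 of 6 rose (4.33%) and 0 fell (0.543%). From there to the morula GATA6 and FN1 rose in both species, 2 of 5 in cow (6.67%) and 2 of 6 in pig (12%). At that step 0 members were called lower, beside 5.15% in cow and 11.3% in pig. The split of all called symbols into higher and lower depended on the scaling, most at the first 2 steps. In cow 20 were higher and 20 lower at the first step, and 8 and 31 with median or quantile scaling; at the second, 46.4% were higher, and 60.6% with median scaling. In pig 60.0% were higher at the first step, and 77.8% with median scaling. At the second, 88.8% were, and 77.0% with median and 62.7% with quantile scaling. Some later majorities turned too. From 8-16 cell to morula, 56.4% were higher in cow, and 49.0% with median scaling. In pig that step had 51.7%, and 42.5% with median and 47.2% with quantile scaling. From pig oocyte to blastocyst 57.6% were higher, and 49.8% with quantile scaling.

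From morula to blastocyst 5 of 8 cow genes rose, beside 11.9% of all compared genes: GATA4, HNF4A, FN1, LAMA1 and COL4A1. In pig 3 of 7 rose, beside 13.8%: HNF4A, FN1 and LAMA1. FN1, LAMA1 and HNF4A were thus called higher at this step in both species, the pig HNF4A call with the limits given above. None of the members was called lower at this step in either species, beside 11.5% of all compared genes in cow and 13.8% in pig.

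7 members were compared from oocyte to blastocyst in both species. GATA6, FN1 and LAMA1 rose in both, 0 fell in both, and LAMB1 had opposite called changes. Of 8566 shared symbols compared in both species, 955 (11%) rose in both, 727 (8.49%) fell in both and 260 (3.04%) had opposite calls.

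Partner genes of the laminin and collagen members did not all share their course. LAMC1, the gamma chain that joins LAMA1 and LAMB1 in laminin-111, was 202, 339, 45.3, 24.1 and 72.3 RPM in cow and 230.0, 84.3, 55.0, 19.3 and 383 RPM in pig from the oocyte to the blastocyst. It was lowest in the morula in both, and it rose from morula to blastocyst in pig, 19.8-fold (15.2 to 26.2), whereas the cow difference was 1.55, not called. Cow LAMC1 has a further row on another chromosome, and the row with the higher mean was used.

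LAMA5, an alpha chain found in many basement membranes, rose from oocyte to blastocyst in both species. The cow level went from 2.84 to 17.4 RPM (6.13-fold, 3.59 to 11.4). The pig level went from 0.592 RPM, which is 2 reads, to 32.7 RPM (ratio 55.2, 15.0 to 461). LAMA3, a chain of the laminin of epithelial anchoring structures, fell from 67.3 to 0.353 RPM in cow, and its pig levels fell from 102 to 3.22 RPM. LAMB4 fell as well: cow levels were 5.48 and 0.0705 RPM at the ends of the course, and pig levels 21.3 and 0.268 RPM. Among the 10 laminin chains listed besides the members, 1 of 7 compared rose (21.8% of all compared genes) and 4 fell (18.4%) in cow. In pig 1 of 6 rose (26%) and 2 fell (19.2%). The laminin medians were -2.60 in cow and -0.13 in pig (-2.42 and 0.14 with 0 to 3 reads set to the floor). Cow LAMA2 fell from 56.6 to 0.776 RPM and cow LAMA4 from 6.49 RPM to 0 reads.

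COL4A2 pairs with COL4A1 in the collagen IV trimer and lies beside it in cow. It had 0 reads in the cow oocyte, 2-4 cell and 8-16 cell embryos, 1.54 RPM in the morula and 10.4 RPM in the blastocyst. In pig, COL4A2 was 0, 2.66, 1.58, 1.33 and 5.90 RPM. It rose from the oocyte by at least 17.0-fold in cow and at least 6.64-fold in pig. COL4A1 and COL4A2 thus both had their highest cow level in the blastocyst.

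NID1, nidogen, which links laminin to collagen IV, had opposite called changes: from 0.609 to 38.3 RPM in cow (difference 4.61) and from 8.29 RPM to 0 reads in pig (difference -2.90). NID2, its relative, fell in pig from 162 to 0.268 RPM, and in cow went from 202 to 79.8 RPM (difference -1.33, not called). SPARC, a collagen-binding matrix protein, rose in cow from 2.64 to 305 RPM (116-fold, 67.6 to 217), with 241 RPM already in the morula. Pig SPARC had 0 reads in all 5 libraries. HSPG2, the perlecan core protein, had 0 reads in both oocytes and rose to 17.7 RPM in the cow and 20.4 RPM in the pig blastocyst.

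Of 21 other collagen IV and basement membrane genes, 6 of 14 compared rose (21.8% of all compared genes) and 1 fell (18.4%) in cow. In pig 6 of 13 rose (26%) and 6 fell (19.2%). The medians were 1.20 in cow and -0.97 in pig (0.88 and -0.46 with 0 to 3 reads set to the floor). The cow gene that fell was SMOC1, a secreted calcium-binding protein (15.2 to 0.141 RPM). Pig FREM2, an extracellular matrix protein of epithelia, fell from 1272 to 46.7 RPM, and TINAGL1 rose from 0 reads to 19.8 RPM. Of 21 genes that modify, secrete or cut matrix proteins, 8 of 16 rose (21.8%) and 2 fell (18.4%) in cow. In pig 3 of 14 rose (26%) and 3 fell (19.2%). P4HB, a subunit of the enzyme that hydroxylates collagen prolines, rose in pig from 0.888 to 84.7 RPM, and in cow, where it also rose, it had 10.95 and 49.2 RPM. TIMP1, an inhibitor of matrix proteases, rose in cow from 0.203 to 60.8 RPM. Pig PLOD2, a collagen lysyl hydroxylase, fell from 155 RPM to 0 reads.

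**Figure D3:**
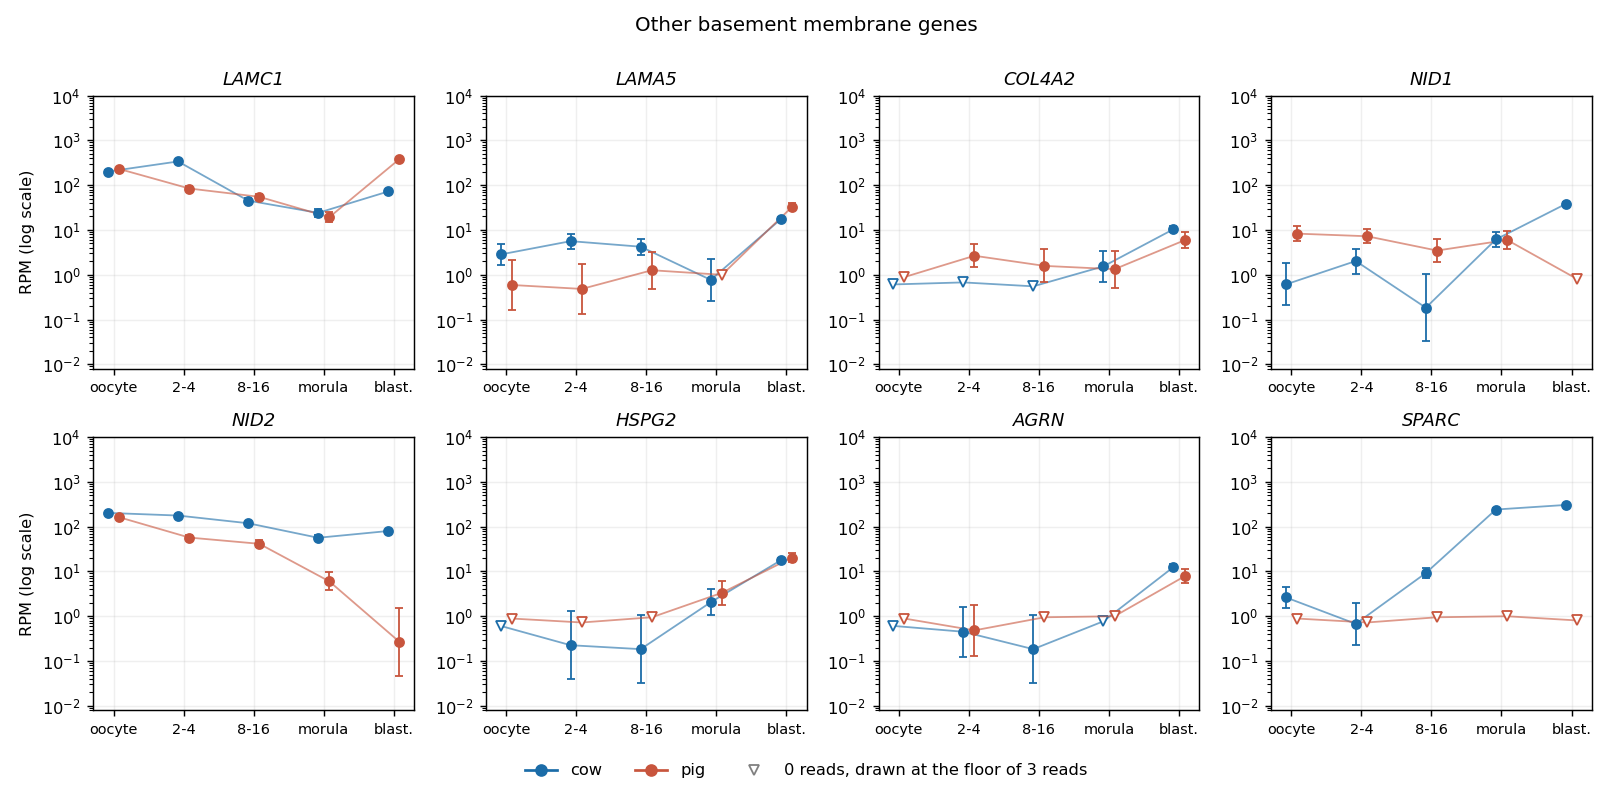
Levels of 8 other basement membrane genes (RPM, log scale) at the 5 stages in cow (blue) and pig (red), 1 library per point, with 95% Wilson intervals and open triangles at the floor where no read was counted. NID1 ends at 38.3 RPM in the cow blastocyst and at 0 reads in the pig blastocyst, and SPARC has reads in cow only.

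Among matrix receptors, 7 of 20 compared rose (21.8% of all compared genes) and 1 fell (18.4%) in cow. In pig 7 of 18 rose (26%) and 4 fell (19.2%). ITGA5, which with ITGB1 forms the classical fibronectin receptor, rose in cow from 1.01 to 134 RPM (132-fold, 56.6 to 408). Pig ITGA5 had 0 reads in the oocyte and 76.4 RPM in the blastocyst, at least 86.0-fold higher. Both blastocysts had the highest ITGA5 level of their species, as they had for FN1. ITGB1 went from 712 to 199.5 RPM in cow (difference -1.83, not called) and rose in pig from 21.3 to 337 RPM. ITGA6, a laminin receptor chain, was not called over the course in either species (difference -1.81 in cow and -1.89 in pig). CD151, a tetraspanin that binds laminin receptors, rose in cow from 0 reads to 35.2 RPM, and in pig its rise was from 5.92 to 1312 RPM.

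The ligands of PDGFRA differed between the tables. PDGFA was 17.6, 19.4, 5.89, 2.31 and 29.4 RPM in cow and 54.5, 88.9, 49.3, 27.3 and 8.58 RPM in pig. It rose from morula to blastocyst in cow (12.7-fold, 6.65 to 28.1) and fell from oocyte to blastocyst in pig (6.35-fold, 4.35 to 9.56). PDGFC was at most 0.811 RPM (4 reads) in cow, while in pig it was 0, 1.69, 4.42, 107 and 476 RPM and rose at least 536-fold. Cow thus had PDGFRA RNA with PDGFA and hardly any PDGFC RNA in the blastocyst, and pig had PDGFC RNA with 14 PDGFRA reads.

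Of 25 genes of PDGF and FGF signalling, 4 of 20 compared rose (21.8% of all compared genes) and 3 fell (18.4%) in cow. In pig 6 of 18 rose (26%) and 5 fell (19.2%). FGFR4, a receptor of FGF ligands, rose in cow from 0 reads to 20.8 RPM and had at most 3 reads in any pig library. ETV5, a transcription factor induced by FGF signalling, fell from 39.1 to 1.13 RPM in the cow, and in the pig it fell from 203 RPM to 0 reads. SPRY4, a feedback inhibitor of the same pathway, rose in cow from 0.609 to 26.2 RPM and fell in pig from 8.59 RPM to 0 reads, although the pig morula had 102 RPM.

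**Figure D4:**
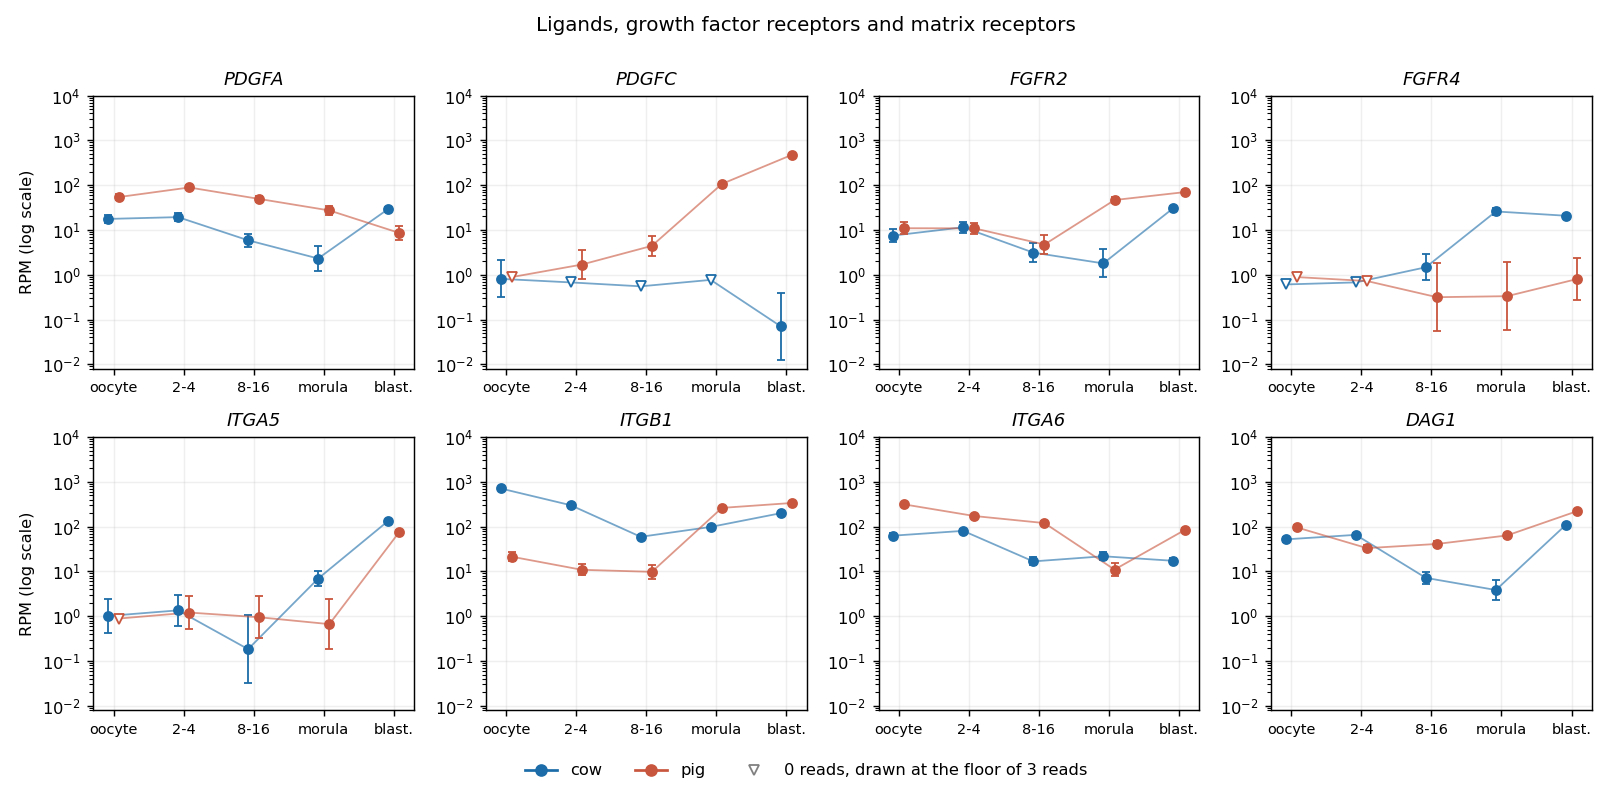
Levels of PDGF ligands, FGF receptors and matrix receptors (RPM, log scale) at the 5 stages in cow (blue) and pig (red), 1 library per point, with 95% Wilson intervals and open triangles at the floor where no read was counted. PDGFC reaches 476 RPM in the pig blastocyst and 1 read in the cow blastocyst, and ITGA5 is highest in the blastocyst of both species.

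Of 16 other regulators of the lineage, 2 of 7 compared rose and 1 fell in cow, where 21.8% of all compared genes rose and 18.4% fell. In pig 2 of 8 rose and 6 fell, where 26% rose and 19.2% fell. HHEX, a homeobox factor of early endoderm, fell from 109.9 RPM in the cow oocyte and 105 RPM in the pig oocyte to 0 reads in both blastocysts. FOXA2 had 0 reads in all 10 libraries. KLF6 rose in cow from 2.84 to 86.1 RPM and in pig from 0 reads to 12.9 RPM, and OTX2 rose in cow from 1.83 to 32.9 RPM.

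Of 34 products of hypoblast and yolk sac endoderm, 5 of 16 compared rose (21.8% of all compared genes) and 6 fell (18.4%) in cow. In pig 5 of 13 rose (26%) and 1 fell (19.2%). In the cow blastocyst 19 of the 33 genes with a row had 0 reads, among them APOE, TTR, AFP and CER1. In the pig blastocyst 19 of 29 did, among them TTR, RBP4, CER1 and NODAL. DAB2, an endocytic adaptor of visceral endoderm that trophectoderm also expresses, rose in cow from 27.2 to 574 RPM, and the pig levels rose from 1.18 to 1413 RPM. LRP2, the endocytic receptor megalin, rose in cow from 92.9 to 1917 RPM. APOA2, an apolipoprotein, rose in pig from 0 reads to 119.8 RPM and had 0 reads in all 5 cow libraries. APOB and FRZB fell in cow, from 40.8 and 43.8 RPM to 0 reads.

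**Figure D5:**
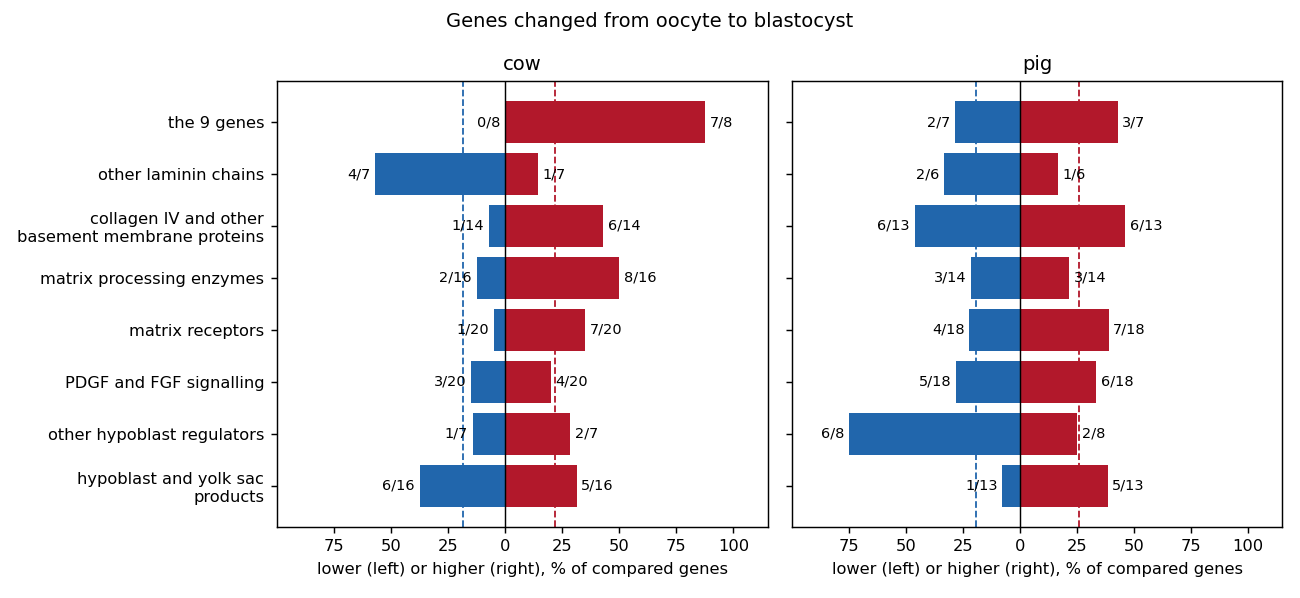
Share of compared genes called higher (red, right) or lower (blue, left) from oocyte to blastocyst in the 9 genes and 7 other gene lists, in cow and pig; fractions are counts of compared genes and dashed lines the share of all compared genes. In cow 7 of 8 of the member genes were higher, and in pig 3 of 7 were higher and 2 of 7 lower.

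Markers of other cell types moved over the same course. The 22 trophectoderm markers (19 with a row in cow, 18 in pig) summed to 310.3 RPM in the cow oocyte and 5068 RPM in the cow blastocyst. In pig the sums were 279.8 and 10577 RPM. KRT8 and KRT18, keratins of that layer, had 1.01 and 0 RPM in the cow oocyte and 1490 and 1021 RPM in the cow blastocyst, and 0 reads in the pig oocyte and 3629 and 2681 RPM in the pig blastocyst. Of these markers 13 of 15 compared rose (21.8% of all compared genes) and 1 fell (18.4%) in cow. In pig 12 of 15 rose (26%) and 2 fell (19.2%). Epiblast markers summed to 211 RPM in the cow oocyte, 1390.0 RPM in the 8-16 cell embryo and 1229 RPM in the blastocyst, and 10 of 14 compared rose and 1 fell (median difference 3.30). In pig they summed to between 645 and 958 RPM, with 5 of 11 higher and 2 lower (median 1.10). KLF5 alone held 529 RPM of the pig blastocyst sum of 958 RPM. NANOG, SOX2, PRDM14, GDF3 and ETV5 had 0 reads in that library. From morula to blastocyst in pig, 3 of 14 epiblast markers rose and 5 fell (median -1.12). The part of both lists in the changes of the 9 genes was not tested.

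NANOG, the epiblast factor that opposes GATA6 in mouse, had 0 reads in the cow oocyte and 2-4 cell embryo, then 116 RPM in the 8-16 cell embryo, 76.4 in the morula and 14.5 RPM in the blastocyst. It fell from morula to blastocyst in cow, a step at which GATA6 was not called. Of the cow epiblast markers, 4 of 14 compared rose at that step and 2 fell, NANOG among them (median difference 0.77). In pig NANOG was at most 2.66 RPM. CDX2, a trophectoderm factor, had 0 reads in pig until the morula and 8.85 RPM in the blastocyst.

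Markers of maternal and other tissue were also summed. The cumulus and granulosa list summed to 586 RPM in the cow oocyte and 2273 RPM in the cow blastocyst, and to 179 and 5002 RPM in pig. In it 7 of 17 compared genes rose (21.8% of all compared genes) and 5 fell (18.4%) in cow. In pig 7 of 12 rose (26%) and 2 fell (19.2%). KRT18, PTGS2, EGFR and CYP19A1 rose in both species. Trophectoderm also expresses KRT18, PTGS2 and EGFR. Which cells held the RNA of CYP19A1, and of the cow genes named next, was not tested. CYP11A1 rose from 0 reads to 16.6 RPM in cow, where HSD3B (19.9 RPM) and LHCGR (16.1 RPM) also rose. In the cow blastocyst 11 of the 25 genes with a row had 0 reads: AMH, FST, HAS2, TNFAIP6, PTX3, GREM1, VCAN, FOXL2, NR5A1, CD44 and ADAMTS1. In the pig blastocyst 7 of 19 did: AMHR2, CYP11A1, INHA, INHBA, PTX3, GREM1 and NR5A1. Oviduct and uterine markers summed to between 39.9 and 157 RPM in cow and between 77.9 and 182 RPM in pig, with ESR1 higher in both species, EPCAM higher and PGR lower in pig. Fibroblast and blood markers summed to between 20.5 and 75.4 RPM in cow and between 16.3 and 78.3 RPM in pig, in both highest in the blastocyst. PECAM1, an endothelial gene, rose in cow from 0.203 to 55.5 RPM, and COL1A2 rose there as well, while POSTN and KDR fell. AIF1, a macrophage gene, rose in pig from 0 reads to 52.0 RPM, and COL1A2 fell. Of the 15 genes with a row, 8 had 0 reads in the cow blastocyst and 10 in the pig blastocyst. The part of these lists in the changes of the 9 genes was not tested.

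Genes with the most similar course were sought among 6278 symbols with at least 10 RPM in some library of both species, over the 10 libraries. The measure was the root mean square difference of log2(RPM + 1), centred within each species, for which 0 is an identical course. 4 members met the same minimum. Nearest to GATA6 were TET1 (0.84), WWTR1 (0.85) and RCSD1 (0.86), and nearest to FN1 were CTIF (0.93), ANXA2 (0.95) and MAB21L3 (0.96). LAMA1 had closer neighbours, ST14 (0.33), DDT (0.37) and ANXA1 (0.42), all at or near the floor before the blastocyst, and LAMB1 was nearest to MMADHC (0.51), LNX1 (0.55) and CD59 (0.55). The members were farther from each other, from 1.65 between FN1 and LAMA1 to 3.22 between GATA6 and LAMB1. The libraries are shared by all genes, so these values describe the profiles only.

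In the deposited coordinates each member lies in a gene span that overlaps no other row of its table, without regard to strand. On the cow build UMD3.1, GATA6 spans chromosome 24 from 34549658 to 34579148 on the minus strand, and LAMA1 lies on the same chromosome from 40384895 to 40508687. FN1 lies on cow chromosome 2 from 103881402 to 103950562, and LAMB1 on cow chromosome 4 from 49263419 to 49339822. COL4A1 (minus strand, 88876125 to 89009422) and COL4A2 (plus strand, 89112423 to 89165255) lie on cow chromosome 12. On the pig build Sscrofa11.1, GATA6 (107282849 to 107314644) and LAMA1 (100355065 to 100468454) are both on chromosome 6. PDGFRA lies on cow chromosome 6 from 71373513 to 71421283 and on pig chromosome 8 from 40977604 to 41018506. These are whole gene spans, exons and introns together.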

How the data were processed

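RNA was measured in 1 library per stage and species. RNA from very small samples was turned into amplified cDNA and then into libraries with 8 PCR cycles, per the labels' protocols. Trim Galore 0.6.4 and HISAT2 2.1.0 and the builds UMD3.1 (cow) and Sscrofa11.1 (pig) come from the submitters' processing notes; the counting method, annotation release, strand and duplicate handling are not given in the sources used here. The authors deposited log2 values, 1 table per species. These were found to be log2 RPM, with 0 reads written as 0.9 of a read: taking the second lowest value as 1 read, 100% of the other nonzero values in every column were whole within 0.01 of a read or 2e-06 of the value, whichever is larger. For the most abundant genes that relative tolerance is wider than the spacing of reads.

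The tables held 22845 cow rows and 21867 pig rows. Rows were matched by symbol, and of repeated symbols the row with the highest mean was used. Background shares are over all rows. Changes, thresholds and intervals were computed with Python 3.11.15, pandas 2.3.3 and scipy 1.17.1, and checked on simulated data. Each species' table has its own scale, and every change was taken within 1 table. No DNA or protein sequence was used.

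Named are the 9 genes, up to 4 genes per list and species with the largest change from oocyte to blastocyst, partner and lineage genes (laminin chains of the same trimer, COL4A2, PDGFA, PDGFC, NID1, ITGA6, ITGB1, HHEX, FOXA2, NANOG, CDX2), and the 3 genes most alike. An item that this rule covers is not reported here. AGRN, FGFR2 and DAG1 in the plots, CYP19A1, HSD3B and LHCGR, and the markers named as having 0 reads fall outside that rule and were chosen after their values were seen. The members and lists were chosen with earlier results of these data known, and the oocyte markers were added after the files were seen. Alternatives covered the pseudocount, the minimum, the threshold, the scaling, repeated symbols and the treatment of 0 reads.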

Additional observations from a re-analysis of the deposited data

Results flagged for a closer look

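6 genes of the member and gene lists had opposite called changes from oocyte to blastocyst in the species, each from 1 library per stage, and the difference between the species was not tested. On the log2(RPM + 1) scale, LAMB1 changed by 2.96 in cow and -2.12 in pig. NID1, the nidogen that links laminin to collagen IV, changed by 4.61 in cow and -2.90 in pig, and LOXL2, a lysyl oxidase that crosslinks collagen, by 2.58 in cow and -2.76 in pig. SPRY4, an inhibitor of FGF signalling, changed by 4.08 in cow and -2.95 in pig. COL1A2, a fibroblast collagen chain, changed by 2.41 in cow and -2.28 in pig. CD44, a hyaluronan receptor, went the other way, by -2.36 in cow and 3.47 in pig. Over all shared symbols, 1.42% rose in cow and fell in pig, and 1.61% fell in cow and rose in pig.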

How the results depend on the processing

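The counts of members called at each step were recomputed under 10 other settings and under 2 more, on the treatment of 0 reads, chosen after seeing the data; the member changes under the same without the thresholds, where the gene still passed the minimum. Counts of members that rose over the whole course stayed within 1.5 times their value under all of them, as did the cow counts for morula to blastocyst. At a threshold of 1, higher counts became 4 (cow 8-16 cell to morula, 2 in the text), 1 (pig 2-4 to 8-16 cell, 0) and 5 (pig morula to blastocyst, 3). At a threshold of 3 they became 0 (cow 8-16 cell to morula), 0 (pig oocyte to 2-4 cell, 1), 1 (pig 8-16 cell to morula, 2) and 1 (pig morula to blastocyst). With a pseudocount of 5 RPM, or 0 to 3 reads set to the floor, pig counts became 0 at the first step and 1 from the 8-16 cell embryo to the morula; a minimum of 5 RPM also gave 0 at the first step. Counts of genes that fell, at most 2 in any comparison, moved to between 0 and 2. Of 625 recomputed changes of 64 results, 547 lay within the counting interval and 78 outside; none of the called ones changed sign, and 13 results crossed the threshold under at least 1 alternative. Another scaling moved the median change of all genes by up to 0.41 (cow oocyte to blastocyst, non-mitochondrial reads) and -0.41 (pig oocyte to blastocyst, quantiles). No paired analysis was possible because each group had 1 library. Depth limits SOX17, GATA4 before the cow blastocyst, and pig PDGFRA and HNF4A, which rest on few reads.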
